A study of Mus musculus with 12 samples.

Results

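Expression of autosomal genes was compared between stimulated CD4 T cells of XXSry and of XY-Sry mice, to ask how far the sex chromosomes alter genes that do not lie on them. Autosomal genes were those on chromosomes 1 to 19 in the mm10 annotation, 34850 of the 39017 genes in the count table. Of these, 13777 had enough reads to be tested, among 14585 genes tested in all. Every difference below is XXSry minus XY-Sry, so a positive log2 fold change means a higher level in XXSry cells.

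XXSry cells carry a pair of X chromosomes and no Y, and XY-Sry cells carry 1 X and the Y chromosome called Y-, which has lost the testis-determining gene Sry. Both groups carry Sry as a transgene, and the labels give both as male. The mice were of the SJL strain and were castrated at 4 to 6 weeks, with carprofen around surgery and amoxicillin in the water afterwards. CD4 T cells were taken from lymph nodes at 8 to 12 weeks by removing other cell types with magnetic beads, and were cultured for 36 hours with beads that bind CD3 and CD28. The other groups of the series, XX and XY-, had the same sex chromosome types without Sry, in ovariectomized females. Each of the 4 groups had 3 libraries. The number of X chromosomes and the presence of the Y change together between these groups and cannot be told apart, and no label says whether each library came from 1 animal, so p-values reflect only library-to-library spread, part of which may be technical.

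Sex chromosome complement can reach autosomal genes through X genes that escape inactivation and through their Y counterparts, several of which encode regulators of chromatin and of translation. A T cell that is stimulated through CD3 and CD28 signals through calcium and NFAT, MAP kinases with AP-1, and NF-kB. It then makes cytokines, turns to glycolysis, builds ribosomes and divides, while genes of the resting, recirculating state are switched down. The gene lists described here follow these steps.

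The 6 libraries compared held 13426538 to 16710188 counts, and 2.27% to 2.63% of them came from mitochondrial genes. X- and Y-linked genes matched the labels: Xist had 40532 to 46999 counts in XXSry libraries and 39 to 64 in XY-Sry libraries, Ddx3y had 0 to 2 and 1335 to 1710, and Sry had 1349 to 2132 and 1410 to 1575. Markers of CD4 T cells summed to 2820 to 3127 CPM (counts scaled to a common library size and for composition), with overlapping groups. B cell markers summed to 322 to 373 CPM, most of it Ighm at 318 to 367 CPM, while Ms4a1 had 17 counts over the 6 libraries. Myeloid markers summed to 16.5 to 19.1 CPM in XXSry and 19.9 to 21.8 CPM in XY-Sry libraries, most of it Csf1r, with Lyz2 and Itgax at 0 counts. CD8 T and NK cell markers summed to 15.9 to 21.7 CPM. Gamma delta and NKT cell markers, 3 tested genes and 1 below the count filter, summed to 5.70, 6.47 and 5.88 CPM in XXSry and 5.27, 4.78 and 4.36 CPM in XY-Sry libraries, without overlap. No erythrocyte or platelet marker passed the count filter. Markers of stroma and endothelium summed to 85.7 to 127.2 CPM in XXSry and 80.1 to 96.1 CPM in XY-Sry libraries, nearly all of it Pecam1, with Col3a1 and Ccl21a at 0 counts and XXSry replicate 3 the highest. The part of other cell types in the results below was not tested. In mixed cells a lower share of a cell type and less RNA per cell cannot be told apart. On the first principal component of the autosomal genes, which held 36.1% of the variance of the 6 libraries, XXSry replicate 3 stood apart at 28.6 and XY-Sry replicate 2 lay at the other end at -15.9, with the other 4 libraries between -8.37 and 7.27.

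Autosomal differences between XXSry and XY-Sry cells were small. The log2 fold changes had a standard deviation of 0.233 and a median of 0.002 over the 13777 genes, with the 5th and 95th percentiles at -0.29 and 0.40. Past 1.5-fold there were 315 genes on the higher side and 155 on the lower, but only 47 and 5 of these had an average level of at least 2 on the log2 CPM scale. Past 2-fold there were 57 and 22, of which 3 and 0 reached that level. The 95% interval of the fold change lay within 1.5-fold for 10207 genes (74.1%) and within 2-fold for 12300 (89.3%).

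The edgeR quasi-likelihood test called 1 autosomal gene, Nrn1, at a Benjamini-Hochberg adjusted p under 0.05 (0.00726% of those tested), and 8 were called by DESeq2 (0.0581%). Positive fold changes made up 50.7% of the genes and negative ones 49.3%. At an unadjusted p under 0.05 there were 1435 genes (10.4%), of which 822 stood higher in XXSry cells (5.97%) and 613 lower (4.45%). All 3 XXSry libraries lay above all 3 XY-Sry libraries for 1424 genes (10.3%) and below them for 1387 (10.1%). These shares are the background for the counts over gene lists given below. Most list members named as examples were chosen for a low p. That choice favours groups without overlap, so the lack of overlap in an example adds no support. The share at an unadjusted p under 0.05 was 4.20% without XXSry replicate 3, 4.97% without XY-Sry replicate 2 and 15.2% without XXSry replicate 1. Without 1 of the 12 libraries the genes at that level numbered 335 to 1165 on the higher side and 252 to 963 on the lower. Counts over gene lists moved as well, so values without single libraries are given beside those that moved most. With no filter on low counts edgeR called 332 autosomal genes in place of 1. With the filter, and p-values adjusted over autosomal genes alone, it called 0 (lowest adjusted p 0.33).

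**Figure D1:**
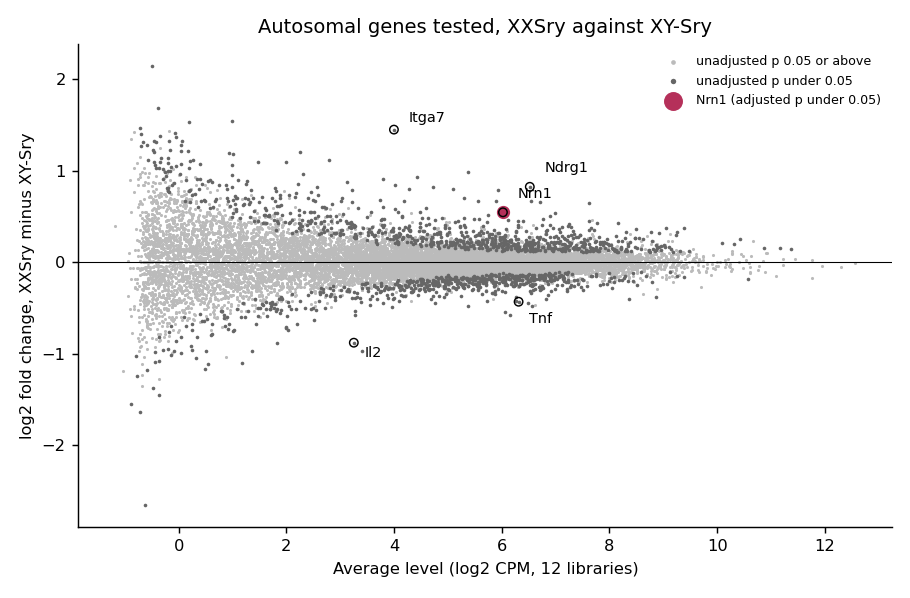
Each point is 1 of the 13777 autosomal genes tested, with its average level over 12 libraries (log2 CPM, horizontal) and its log2 fold change, XXSry minus XY-Sry (vertical). The spread narrows as the level rises, and Nrn1, at 0.55, is the gene past the threshold adjusted over all 14585 genes tested. It is not past it when adjusted over autosomal genes alone.

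Nrn1 encodes neuritin, a lipid-anchored surface protein first described in neurons and known in T cells from regulatory and unresponsive cells. It lies on chromosome 13 from 36725361 to 36735131 (mm10). Its level was 60.8, 61.3 and 70.1 CPM in the XXSry libraries and 46.1, 42.6 and 43.0 CPM in the XY-Sry libraries. The groups did not overlap, and Nrn1 was higher in XXSry cells by 0.55 ± 0.09 on the log2 scale (± SE). Its edgeR adjusted p was 0.0233 over all 14585 genes tested, which include X- and Y-linked genes. Adjusted over autosomal genes alone its edgeR p was 0.33, so the call depended on the set of genes adjusted over. In XX and XY- cells its levels overlapped, from 73.2 to 80.5 and from 67.2 to 86.3 CPM, with a log2 fold change of 0.05 ± 0.09. The difference between these contrasts did not pass the adjusted threshold. The adjusted p rose to between 0.0817 and 0.202 without XXSry replicate 2, XXSry replicate 3 or any 1 of the XY-Sry libraries, so the call ended in each of those fits, while the fold change stayed between 0.48 and 0.58.

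The other 7 genes called by DESeq2 alone were Rpl12, Ahnak, Adcy6, Tnf, Tnrc6b, Itga4 and Ndrg2. Rpl12, a protein of the large ribosomal subunit (chromosome 2, 32961559 to 32965345), was at 49.2, 47.7 and 40.6 CPM in XXSry and 58.9, 62.8 and 62.6 CPM in XY-Sry cells, a log2 fold change of -0.42 ± 0.08. Tnf, the inflammatory cytokine (chromosome 17, 35199381 to 35202007), was at 77.9, 72.0 and 61.8 CPM against 90.0, 100.1 and 95.5 CPM, a log2 fold change of -0.43 ± 0.10. For both, every XXSry library lay below every XY-Sry library, and XXSry replicate 3 was the lowest.

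Itga4 encodes the alpha 4 integrin chain with which T cells bind to inflamed vessels (chromosome 2, 79255426 to 79333123). It was at 122.8, 131.7 and 162.3 CPM in XXSry and 107.3, 105.7 and 108.4 CPM in XY-Sry cells, a log2 fold change of 0.38 ± 0.09. Ahnak, a very large scaffold protein, stood higher by 0.31 ± 0.07, the adenylyl cyclase Adcy6 by 0.39 ± 0.09, Tnrc6b, a partner of Argonaute in silencing by microRNAs, by 0.27 ± 0.06, and Ndrg2 by 0.70 ± 0.17. Adjusted p-values of these 7 genes were 0.12 to 0.39 by edgeR and 0.0063 to 0.044 by DESeq2. Their log2 fold changes between XX and XY- cells had the same signs, from -0.23 to 0.23.

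Among genes at an average of at least 2 on the log2 CPM scale whose groups did not overlap, the 12 with the lowest p on the higher side were Nrn1, Ahnak, Adcy6, Tnrc6b and Itga4 with Zfp354c, Tnik, Rnf111, Igsf3, Ubxn7, Gad1 and Lztfl1. Zfp354c, a zinc finger gene, was at 5.05, 5.26 and 5.20 CPM against 3.12, 3.55 and 2.74 CPM, and Gad1, the enzyme that makes the transmitter GABA, at 7.50, 6.60 and 6.06 CPM against 4.31, 4.20 and 4.07 CPM. Their log2 fold changes were 0.72 ± 0.15 and 0.67 ± 0.16, and the lack of overlap follows from how these genes were chosen. The kinase gene Tnik, the ubiquitin ligase gene Rnf111 and Ubxn7, a cofactor of the p97 unfoldase, stood at 0.27 ± 0.06, 0.24 ± 0.06 and 0.20 ± 0.05. None of these 7 was called by either tool (edgeR adjusted p 0.23 to 0.36).

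The 12 with the lowest p on the lower side included Rpl12, Tnf, Rpl10a, Farsa, Yrdc, Plxna1, Arl6, Mrps34, Csf1r, BC029722 and Mmp24. Rpl10a is a ribosomal protein, Farsa charges a transfer RNA with phenylalanine, Yrdc takes part in modifying transfer RNAs, and Mrps34 belongs to the mitochondrial ribosome. Farsa was at 102.0, 97.3 and 87.3 CPM in XXSry and 114.7, 117.7 and 118.8 CPM in XY-Sry cells, a log2 fold change of -0.29 ± 0.07. Plxna1, a semaphorin receptor, stood at -0.38 ± 0.09. Csf1r, the receptor for a macrophage growth factor, was at 11.0, 12.0 and 10.8 CPM against 14.3, 16.3 and 15.4 CPM, while the myeloid genes Lyz2 and Itgax had 0 counts. Arl6, a small GTPase that acts with the BBSome in cilia, was at 4.40, 4.10 and 4.21 CPM against 5.93, 5.88 and 6.21 CPM. BC029722 and Mmp24 overlap on chromosome 2, and their reads may be shared. Apart from Rpl12 and Tnf, none was called by either tool (edgeR adjusted p 0.36 to 0.45).

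Among genes at that level with an unadjusted p under 0.05 and no overlap, the 5 with the highest fold changes were Itga7, P4ha2, Acvrl1, Cdhr3 and Vldlr. Itga7, an integrin chain that binds laminin, was at 7.57, 11.3 and 27.0 CPM in XXSry and 7.25, 2.91 and 6.80 CPM in XY-Sry cells, a log2 fold change of 1.45 ± 0.55. Acvrl1, a receptor of the TGF-beta family, was at 25.0, 29.9 and 61.3 CPM against 21.9, 13.9 and 23.3 CPM, 0.99 ± 0.34. In all 5 genes the highest library was XXSry replicate 3 and the lowest was XY-Sry replicate 2. The 5 with the lowest fold changes were Il2, Rhbdf1, Snora73a, Nfkbid and Lipg, from -0.88 ± 0.30 for Il2 to -0.58 ± 0.20 for Lipg, which encodes a lipase of the vessel wall.

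**Figure D2:**
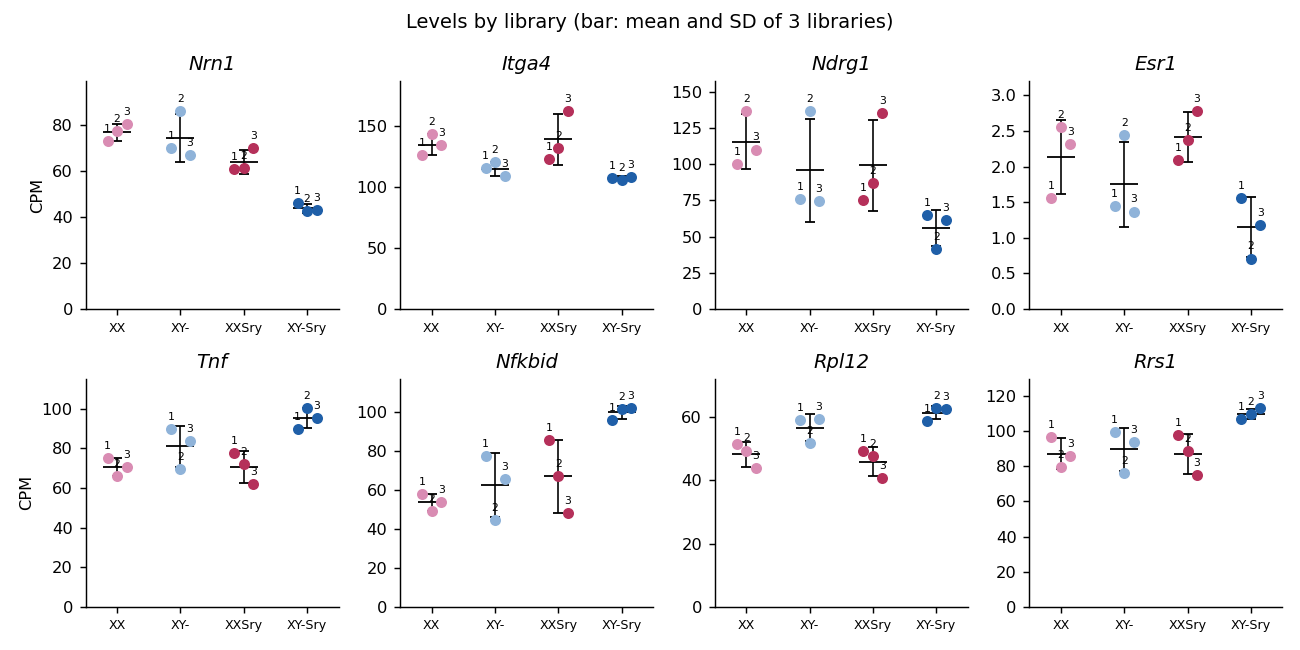
Levels of 8 genes in CPM (vertical) in all 12 libraries, by group, with the replicate number at each point and the mean and SD of each group of 3 as bars. Nrn1 runs from 60.8 to 70.1 CPM in XXSry and from 42.6 to 46.1 CPM in XY-Sry libraries, and Ndrg1 spans 75.5 to 135.2 CPM within XXSry alone.

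Signalling downstream of the T cell receptor showed higher values of calcium and NFAT genes. Of 15 genes of calcium entry and NFAT, 12 had a positive fold change and 7 stood higher at an unadjusted p under 0.05, with a list median of 0.13. Nfatc2, a transcription factor that calcineurin activates, was at 182.5, 181.5 and 193.4 CPM in XXSry and 173.1, 160.2 and 164.2 CPM in XY-Sry cells, 0.16 ± 0.06. Stim1, the sensor of calcium stores, was at 126.5, 128.2 and 134.4 CPM against 118.3, 118.3 and 118.4 CPM. Both genes were higher in every XXSry library, and 5 members in all did not overlap on the higher side, 0 on the lower. The median ran from 0.10 (without XXSry replicate 3) to 0.15 (without XXSry replicate 1), and the genes at an unadjusted p under 0.05 numbered 0 and 8 in those fits, and 1 or 2 without any 1 of the XY-Sry libraries. Of 24 genes of the receptor and its proximal kinases, 19 were positive with a median of 0.03 and 3 stood higher at an unadjusted p under 0.05, Rasgrp1 (0.23 ± 0.09), Grap2 (0.19 ± 0.07) and Cd28 (0.11 ± 0.05), and without XXSry replicate 3 the median was 0.01 and the count 0.

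Early response genes leaned the other way. Of 22 immediate early and AP-1 genes, 16 were negative with a median of -0.17, 4 stood lower at an unadjusted p under 0.05 and 1, Fosl2, higher. Junb was at 358.5, 324.6 and 313.7 CPM in XXSry and 370.9, 376.5 and 401.0 CPM in XY-Sry cells, -0.20 ± 0.07, and Jun stood at -0.25 ± 0.09. The genes lower at an unadjusted p under 0.05 numbered 2 without XXSry replicate 2, XXSry replicate 3, XY-Sry replicate 2 or XY-Sry replicate 3, and 9 without XXSry replicate 1. Of 12 feedback genes of the MAP kinases 8 were negative, with a median of -0.06, among them the phosphatase gene Dusp2 at -0.30 ± 0.11, while Spred2 stood at 0.25 ± 0.08. That median ran from -0.10 (without XXSry replicate 1) to -0.03 (without XXSry replicate 3).

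The NF-kB list held 20 tested genes, 18 of them negative, with a median of -0.16 and 7 lower at an unadjusted p under 0.05 against 0 higher. Nfkbia, which encodes the inhibitor IkB alpha and is itself an NF-kB target, was at 189.6, 169.9 and 157.2 CPM in XXSry and 200.1, 209.0 and 213.3 CPM in XY-Sry cells, -0.27 ± 0.07. Nfkbid, a nuclear IkB protein, was at 85.9, 67.3 and 48.1 CPM against 96.2, 101.8 and 102.1 CPM, -0.58 ± 0.18. The subunit gene Relb stood at -0.37 ± 0.13 and the adhesion gene Icam1 at -0.38 ± 0.13. XXSry replicate 3 was the lowest library for each of these 4 genes. Without it the median was -0.13 with 2 genes lower at an unadjusted p under 0.05. The median moved most without XY-Sry replicate 3, to -0.08 with 15 genes negative and 4 at that level, and was -0.23 with 11 at that level without XXSry replicate 1.

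Cytokine and chemokine genes had the lowest median of the 40 lists, -0.34 over 22 tested genes, with 19 negative and 7 lower at an unadjusted p under 0.05 against 0 higher. Il2, the growth factor of T cells, was at 9.95, 8.14 and 5.44 CPM in XXSry and 12.8, 13.5 and 16.9 CPM in XY-Sry cells, -0.88 ± 0.30. Lta, the neighbour of Tnf on chromosome 17, was at 433.3, 381.6 and 299.4 CPM against 449.9, 526.3 and 471.0 CPM, -0.38 ± 0.12. Both were lower in every XXSry library. Ifng, the cytokine of Th1 cells, stood at -0.97 ± 0.38 with overlapping groups. Il13, a Th2 cytokine, stood at -1.64 ± 0.51 but at less than 1 CPM in every library. No member but Tnf was called by either tool, and without XXSry replicate 3 the median was -0.20 with 4 genes at an unadjusted p under 0.05, against -0.49 and 10 without XXSry replicate 1. Outside this list the tumour necrosis factor receptor gene Tnfrsf4, which encodes the costimulator OX40, was at 285.6, 261.9 and 236.1 CPM against 305.0, 304.0 and 301.5 CPM, -0.22 ± 0.07.

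Promoter sequence is shown for 2 members of the NF-kB and cytokine lists because NF-kB binds DNA directly. The 250 bases before the start site were read from RefSeq (GRCm38.p6), and a form of the kappa B motif, GGGA and CC with any 4 bases between them, was searched on both strands and is in capitals. The Nfkbia window (chr12:55492648-55492897, minus strand) and the Tnf window (chr17:35202008-35202257, minus strand), each written 5′ to 3′, follow.
Nfkbia: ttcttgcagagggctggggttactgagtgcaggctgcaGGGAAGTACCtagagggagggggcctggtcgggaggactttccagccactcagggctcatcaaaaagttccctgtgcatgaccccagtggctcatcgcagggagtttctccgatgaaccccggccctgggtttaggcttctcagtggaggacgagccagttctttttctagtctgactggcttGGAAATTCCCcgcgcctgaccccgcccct
Tnf: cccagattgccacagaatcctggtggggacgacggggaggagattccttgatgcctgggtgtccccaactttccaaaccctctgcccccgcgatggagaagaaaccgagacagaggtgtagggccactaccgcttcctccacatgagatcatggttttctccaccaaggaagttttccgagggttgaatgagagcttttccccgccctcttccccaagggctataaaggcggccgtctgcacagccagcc
The Nfkbia window held 2 matches, 1 on each strand, and the Tnf window held 0. Of the tested NF-kB genes 16 had an entry and 7 of these held the motif (43.8%), of the cytokine genes 8 of 19 (42.1%), and of all 27017 genes with an entry 4690 did (17.4%). The share over all genes also counts genes without enough reads to be tested, so it is not a like background. These matches are letters in a window and were not tested against the fold changes.

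Inhibitory receptor genes leaned lower in XXSry cells. Of 10 inhibitory receptor and ligand genes 9 were negative, with a median of -0.23. Lag3 was at 54.6, 49.6 and 46.6 CPM in XXSry and 54.8, 59.1 and 60.0 CPM in XY-Sry cells, -0.21 ± 0.10, and Pdcd1lg2, a ligand of PD-1, stood at -0.51 ± 0.21. Ctla4 went against the others, at 302.0, 301.4 and 300.0 CPM against 289.4, 255.3 and 270.2 CPM, 0.15 ± 0.07. The median was -0.15 without XXSry replicate 3, and the 3 members lower at an unadjusted p under 0.05 became 0 or 1 when replicate 2 or 3 of either group was left out. The 14 costimulatory genes had a median of -0.06 with 9 negative, among them the early activation marker Cd69 at -0.44 ± 0.16, and a median of 0.01 without XXSry replicate 3. The 10 genes of unresponsive T cells, a list that holds Nrn1, had a median of 0.12 with 7 positive, and 0.08 without that library.

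Genes of naive and recirculating T cells leaned higher in XXSry cells. Of 19 naive T cell genes, 18 were positive and 8 stood higher at an unadjusted p under 0.05 against 0 lower, with a median of 0.20. Il7r, the receptor for the survival cytokine IL-7, was at 42.2, 47.2 and 56.3 CPM in XXSry and 39.3, 38.6 and 38.8 CPM in XY-Sry cells, 0.32 ± 0.10. Tob1, which restrains the division of resting T cells, was at 30.6, 30.8 and 35.8 CPM against 27.4, 23.8 and 24.0 CPM, 0.37 ± 0.12. The groups did not overlap for either gene, and XXSry replicate 3 was the highest library for both. Without it the median was 0.11 and 1 gene was at an unadjusted p under 0.05. Without XXSry replicate 1 these values were 0.29 and 12, and without XY-Sry replicate 2 the count was 4.

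Homing receptors and integrins, 17 genes, had a median of 0.18 with 12 positive and 6 higher at an unadjusted p under 0.05. Besides Itga4 they included the chemokine receptor genes Cxcr4, at 12.8, 12.5 and 16.9 CPM against 9.29, 9.49 and 10.1 CPM (0.55 ± 0.14), and Ccr2, at 2.45, 2.63 and 3.40 CPM against 1.20, 1.68 and 1.70 CPM (0.90 ± 0.29). For both, every XXSry library lay above every XY-Sry library. The median was 0.06 without XXSry replicate 3, with 3 genes at an unadjusted p under 0.05, and 0.25 without XXSry replicate 1, with 9.

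Genes of helper subsets showed no common shift apart from those of regulatory T cells. The medians were 0.09 for Th1, -0.02 for Th2, -0.06 for Th17 and -0.01 for follicular helper genes. Of 12 autosomal regulatory T cell genes 10 were positive with a median of 0.15, and 4 stood higher at an unadjusted p under 0.05: Entpd1 (0.31 ± 0.11), Il2ra (0.16 ± 0.06), Ikzf4 (0.16 ± 0.07) and Ctla4. Il2ra, the high-affinity IL-2 receptor chain, was at 2261, 2303 and 2251 CPM in XXSry and 2088, 2007 and 2019 CPM in XY-Sry cells, with no overlap. The regulatory list had a median of 0.13 to 0.18 without 1 library, but the 4 genes at an unadjusted p under 0.05 became 0 without XXSry replicate 2 or XY-Sry replicate 2, and 2 without XXSry replicate 1 or XY-Sry replicate 3. Of 20 genes of the IL-2 receptor and JAK-STAT signalling 14 were positive with a median of 0.03, and -0.01 without XXSry replicate 3. Socs1, an inhibitor of cytokine signalling, stood at -0.18 ± 0.07.

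The median of the type I interferon list changed widely with the libraries included. Of 33 type I interferon genes 28 were positive with a median of 0.15, but 1 stood at an unadjusted p under 0.05, Rsad2, at 0.22, 0.96 and 1.36 CPM against 0.24, 0.06 and 0.52 CPM. Without XXSry replicate 3 the median was -0.02, with 12 positive and 21 negative, and without XY-Sry replicate 3 it was 0.30, with 32 positive and 1 negative. The 22 interferon gamma response genes had a median of -0.03.

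The response to low oxygen had the highest median of the 40 lists. All 16 of its genes were positive, with a median of 0.35, 11 stood higher at an unadjusted p under 0.05 and 12 did not overlap between groups. Ndrg1, a stress-induced gene on chromosome 15, was at 75.5, 87.0 and 135.2 CPM in XXSry and 64.9, 41.7 and 61.7 CPM in XY-Sry cells, 0.82 ± 0.25. P4ha1, a prolyl hydroxylase that modifies collagen (chromosome 10, 59323296 to 59373304), was at 121.6, 133.0 and 155.6 CPM against 111.4, 100.5 and 114.7 CPM, 0.33 ± 0.10. Bnip3l, a receptor for the removal of mitochondria, stood at 0.47 ± 0.15, and P4ha2 at 1.12 ± 0.37. In these 4 genes XXSry replicate 3 was the highest and XY-Sry replicate 2 the lowest library, and edgeR adjusted p-values were 0.45. Without XXSry replicate 3 the median was 0.23 with 4 genes at an unadjusted p under 0.05, and without XY-Sry replicate 2 it was 0.22 with 5. All 16 genes were positive in both of these fits.

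Of 20 glycolysis genes 19 were positive, with a median of 0.13 and 7 higher at an unadjusted p under 0.05. Slc16a3, a lactate exporter, was at 184.2, 199.0 and 238.7 CPM in XXSry and 172.3, 121.8 and 167.8 CPM in XY-Sry cells, 0.43 ± 0.13. Slc2a3, a glucose transporter, was at 143.7, 161.4 and 234.8 CPM against 135.9, 77.5 and 130.9 CPM, 0.65 ± 0.23. Slc2a1, the other main glucose transporter of T cells, stood at 0.24 ± 0.09 and Pdk1, a kinase that restrains pyruvate dehydrogenase, at 0.33 ± 0.12, both with overlapping groups. The median was 0.07 without XY-Sry replicate 2, with 2 genes at an unadjusted p under 0.05, and the count was 1 without XXSry replicate 3.

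Promoters of P4ha1, P4ha2 and Slc16a3 are shown because the factors of the low-oxygen response bind the letters ACGTG, which were searched on both strands and are in capitals (CACGT where the match is on the other strand). The windows are again the 250 bases before the RefSeq start site (GRCm38.p6), all on the plus strand: chr10:59323046-59323295 for P4ha1, chr11:54100674-54100923 for P4ha2 and chr11:120948817-120949066 for Slc16a3.
P4ha1: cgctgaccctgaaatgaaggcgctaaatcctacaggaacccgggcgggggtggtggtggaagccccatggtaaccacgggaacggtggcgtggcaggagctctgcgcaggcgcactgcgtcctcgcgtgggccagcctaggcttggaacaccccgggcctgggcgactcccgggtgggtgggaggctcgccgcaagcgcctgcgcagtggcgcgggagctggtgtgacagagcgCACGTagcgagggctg
P4ha2: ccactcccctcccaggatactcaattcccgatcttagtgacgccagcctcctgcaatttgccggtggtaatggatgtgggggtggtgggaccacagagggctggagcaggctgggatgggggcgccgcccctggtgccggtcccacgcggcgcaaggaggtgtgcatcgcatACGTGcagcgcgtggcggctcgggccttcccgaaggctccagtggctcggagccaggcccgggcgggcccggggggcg
Slc16a3: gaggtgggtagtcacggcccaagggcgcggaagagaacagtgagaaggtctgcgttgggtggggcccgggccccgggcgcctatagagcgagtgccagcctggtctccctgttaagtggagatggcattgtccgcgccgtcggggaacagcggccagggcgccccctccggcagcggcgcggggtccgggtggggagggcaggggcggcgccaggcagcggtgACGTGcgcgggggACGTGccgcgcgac
The P4ha1 and P4ha2 windows held 1 match each and the Slc16a3 window 2. Of 13 low-oxygen response genes with an entry 8 held the letters (61.5%), of 19 glycolysis genes 8 (42.1%), and of all 27017 genes 4458 (16.5%). The share over all genes also counts genes without enough reads to be tested, so it is not a like background. The matches were not tested against the fold changes.

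**Figure D3:**
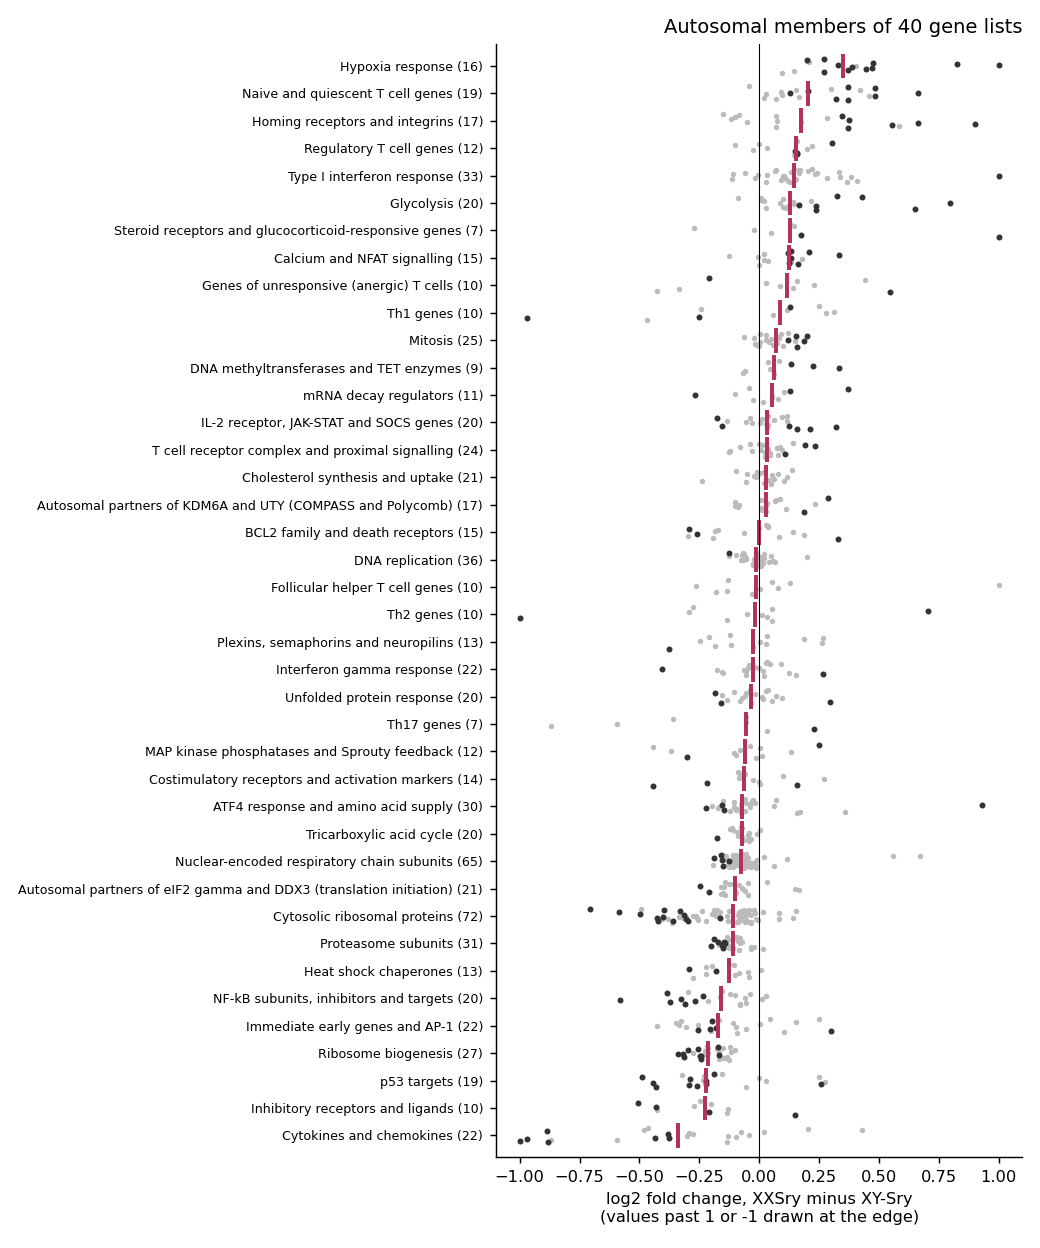
Log2 fold changes, XXSry minus XY-Sry (horizontal), of the tested autosomal members of 40 gene lists (vertical, with the number of members), in dark where the unadjusted p was under 0.05, with the list median as a red bar. The medians run from -0.34 for cytokines and chemokines to 0.35 for the response to low oxygen, and values past 1 or -1 are drawn at the edge.

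Nuclear genes of mitochondrial metabolism leaned slightly lower in XXSry cells. Of 20 genes of the tricarboxylic acid cycle 19 were negative with a median of -0.07, and of 65 nuclear-encoded subunits of the respiratory chain 60 were negative with a median of -0.07. Atp5j, a subunit of ATP synthase, was at 97.3, 103.3 and 103.4 CPM in XXSry and 117.2, 107.2 and 115.0 CPM in XY-Sry cells, -0.16 ± 0.05, without overlap. Members ran from -0.17 to 0.002 in the tricarboxylic acid cycle list and from -0.19 to 0.67 in the respiratory chain list. Among the subunit genes 5 stood lower at an unadjusted p under 0.05 (2 without XXSry replicate 2 or 3, 11 without XX replicate 3). With offsets for the trend with transcript length their median was -0.04.

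Genes of ribosome production leaned lower. All 27 tested ribosome biogenesis genes were negative, with a median of -0.21, and 10 stood lower at an unadjusted p under 0.05. Rrs1, an assembly factor of the large subunit, was at 97.5, 88.8 and 74.9 CPM in XXSry and 107.1, 109.7 and 112.8 CPM in XY-Sry cells, -0.34 ± 0.10. Nop2, which methylates ribosomal RNA, was at 148.3, 138.3 and 115.0 CPM against 160.8, 170.1 and 167.7 CPM, -0.31 ± 0.11. Neither overlapped, and XXSry replicate 3 was the lowest library for both. Without it the median was -0.11, 27 of 27 genes were negative and 1 was at an unadjusted p under 0.05. Without XXSry replicate 1 the median was -0.32 with 19 at that level, and there were 3 to 6 without 1 of the XY-Sry libraries.

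Of 72 autosomal ribosomal protein genes, 67 were negative with a median of -0.11 and 13 stood lower at an unadjusted p under 0.05 against 0 higher. Beside Rpl12 the lowest p-values were those of Rpl10a, at 109.9, 100.4 and 85.7 CPM against 116.1, 131.1 and 132.4 CPM (-0.36 ± 0.09), of Rpl27 (-0.43 ± 0.12) and of Rps18 (-0.33 ± 0.10). The mean of the list stood at -0.07, -0.10 and -0.08 in the XXSry libraries and 0.01, 0.12 and 0.12 in the XY-Sry libraries, on the log2 scale relative to the mean of the 6 libraries, and the median was -0.12 without XXSry replicate 3. It ran from -0.13 (without XY-Sry replicate 1) to -0.08 (without XY-Sry replicate 3). The 13 genes at an unadjusted p under 0.05 became 8 without XXSry replicate 3 or XY-Sry replicate 2 and 6 without XY-Sry replicate 3. Ribosomal protein genes have many near-identical processed copies, so their counts are uncertain where reads could be split.

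Proteasome genes and chaperones leaned lower too. Of 31 proteasome subunit genes 30 were negative with a median of -0.11 and 8 stood lower at an unadjusted p under 0.05, for example Psmc4, at 134.5, 138.5 and 128.7 CPM against 147.1, 153.6 and 143.9 CPM (-0.15 ± 0.05). The median was -0.07 without XXSry replicate 3, with 30 of 31 negative but 0 at an unadjusted p under 0.05, and that count was also 0 without XY-Sry replicate 2. It was 4 or 5 without XXSry replicate 2, XY-Sry replicate 1 or XY-Sry replicate 3, 13 without XXSry replicate 1 and 2 with offsets for the trend with transcript length. Of 13 heat shock genes 12 were negative with a median of -0.13, and -0.06 without XXSry replicate 3. The medians were -0.04 for the unfolded protein response and -0.07 for the ATF4 response and amino acid supply, where Vldlr stood out at 0.93 ± 0.31. Without XXSry replicate 3 the latter was -0.02 with 18 of 30 negative in place of 24, and without XXSry replicate 1 it was -0.11.

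p53 targets leaned lower in XXSry cells. Of 19 tested targets 15 were negative with a median of -0.22, 9 stood lower at an unadjusted p under 0.05 and 1, Trp53inp1, higher. Cdkn1a, the inhibitor of cell division p21, was at 77.3, 69.5 and 56.0 CPM in XXSry and 77.9, 99.2 and 95.8 CPM in XY-Sry cells, -0.43 ± 0.14. Phlda3, a repressor of AKT signalling, was at 26.3, 25.6 and 22.2 CPM against 33.9, 34.2 and 32.4 CPM, -0.44 ± 0.14, and Bax, which permeabilizes mitochondria in cell death, at 102.7, 101.2 and 91.7 CPM against 112.0, 122.8 and 118.8 CPM, -0.26 ± 0.08. The groups did not overlap for any of these 3 genes. The median was -0.15 without XXSry replicate 3, and 5 genes were lower at an unadjusted p under 0.05 without that library, XY-Sry replicate 1 or XY-Sry replicate 2. The 15 genes of the BCL2 family and death receptors, which share Bax and Bbc3 with that list, had a median of -0.002, with Bcl2 itself at 544.9, 626.8 and 727.7 CPM against 529.9, 464.4 and 516.9 CPM (0.33 ± 0.11).

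Cell cycle genes differed little. The 36 DNA replication genes had a median of -0.01, and every member lay between -0.13 and 0.20. Of 25 mitosis genes 21 were positive with a median of 0.07 and 5 stood higher at an unadjusted p under 0.05, such as Cenpf, a protein of the kinetochore, at 286.2, 283.2 and 287.7 CPM against 262.0, 246.8 and 244.9 CPM (0.19 ± 0.06). That count of 5 became 1 without XY-Sry replicate 3, 2 without XXSry replicate 2 or 3, 3 without XXSry replicate 1 or XY-Sry replicate 2, and 2 with length offsets, while the median ran from 0.06 to 0.09. Cholesterol synthesis genes had a median of 0.03 over 21 genes, and regulators of mRNA decay one of 0.05 over 11, with Tob1, which restrains T cell division, at 0.37 ± 0.12.

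**Figure D4:**
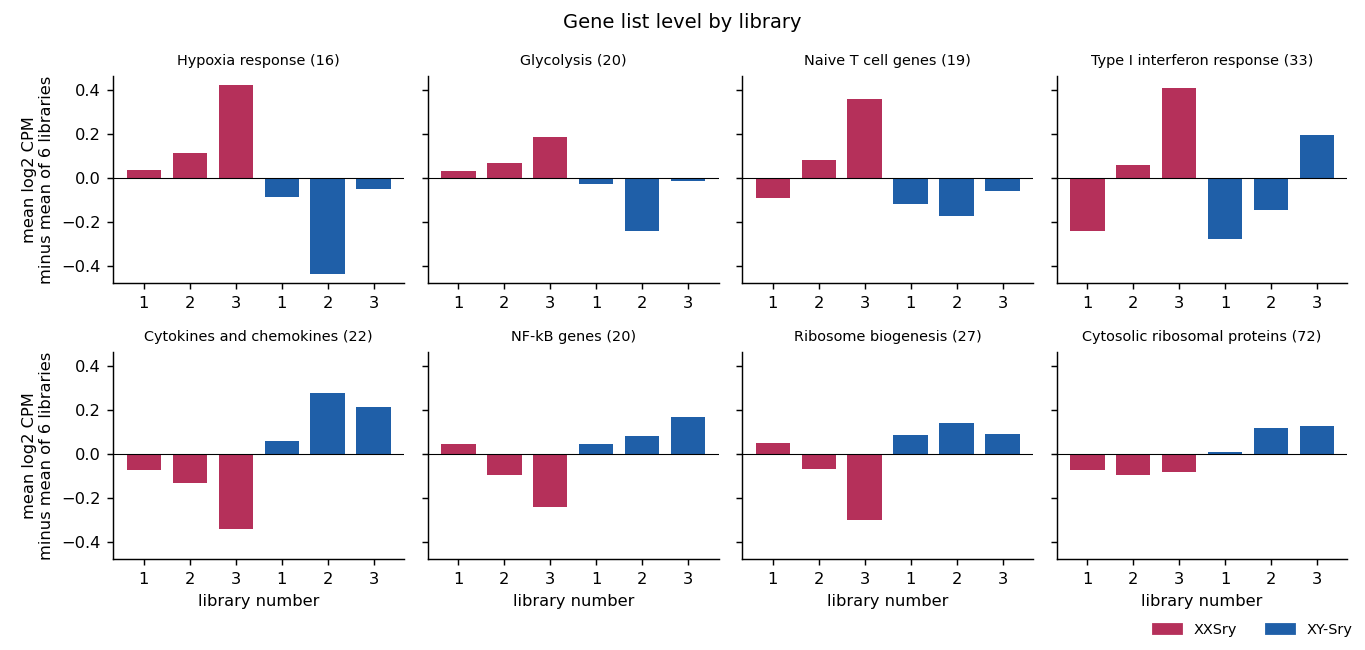
Mean log2 CPM of the tested members of 8 lists in each library, relative to the mean of the 6 libraries (vertical), with XXSry in red and XY-Sry in blue. XXSry replicate 3 reaches 0.42 for low-oxygen response genes and -0.30 for ribosome biogenesis genes, and XY-Sry replicate 2 lies at -0.44 for low-oxygen response genes.

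Autosomal genes chosen for their link to X- and Y-linked chromatin and translation genes were described as a group of their own. Of 17 COMPASS and Polycomb genes, listed for KDM6A and UTY, 13 were positive with a median of 0.03. The list pools proteins of both complexes, whose roles differ. Kmt2c, a histone methyltransferase, was at 172.9, 175.6 and 184.1 CPM in XXSry and 161.7, 151.8 and 154.0 CPM in XY-Sry cells, 0.19 ± 0.06. Of 21 genes that work with eIF2 gamma and DDX3 in translation initiation, 18 were negative with a median of -0.10, and the helicase gene Eif4a1 stood at -0.25 ± 0.10. That median was -0.03 without XXSry replicate 3.

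The DNA-modifying enzymes included all 3 TET genes on the higher side, whose products oxidize methylated cytosine. Tet2 was at 91.4, 92.0 and 87.8 CPM in XXSry and 78.3, 77.4 and 76.5 CPM in XY-Sry cells, 0.22 ± 0.06, Tet1 stood at 0.33 ± 0.11 and Tet3 at 0.13 ± 0.05, each without overlap between groups. The DNA methyltransferase Dnmt1 stood at 0.06 ± 0.05. The list median of 9 genes was 0.06, and 0.05 without XXSry replicate 3. These 3 genes have transcripts of 9179 to 14369 bases, and longer transcripts tended to positive values, as given below.

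Steroid receptor genes were examined because all animals lacked gonads. Esr1, the estrogen receptor alpha, was at 2.09, 2.37 and 2.78 CPM in XXSry and 1.56, 0.71 and 1.18 CPM in XY-Sry cells, 1.06 ± 0.31, and Nr3c1, the glucocorticoid receptor, at 118.1, 127.8 and 136.5 CPM against 115.0, 112.3 and 111.6 CPM, 0.18 ± 0.07. Neither overlapped between groups, and edgeR adjusted p-values were 0.45 and 0.46. The 7 tested genes of that list had a median of 0.13, and 0.07 without XXSry replicate 3. Among 13 plexin, semaphorin and neuropilin genes the median was -0.02, with Plxna1 at 40.2, 35.8 and 30.9 CPM against 47.3, 47.6 and 43.6 CPM.

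Longer transcripts tended to positive fold changes and shorter ones to negative. Genes were split into 5 equal bins by transcript length. From the shortest to the longest bin, the median log2 fold change was -0.04, -0.02, -0.004, 0.01 and 0.05. An unadjusted p under 0.05 was found for 54 genes on the higher and 175 on the lower side in the shortest bin, and for 355 and 48 in the longest. The order held in each library: in the longest bin the median level stood at 0.03, 0.03 and 0.02 for XXSry libraries against -0.01, -0.03 and -0.03 for XY-Sry libraries, on the log2 scale relative to the mean of the 6. In XX against XY- cells the medians ran from -0.02 to 0.02. From the lowest to the highest GC content, bins ran from 0.02 to -0.02, and in XX against XY- cells from 0.05 to -0.05. The longest transcript had a median of 1114.5 bases for ribosomal protein genes and 1005 for respiratory chain genes, against 3019 over all autosomal genes, and the part of transcript length in the other results was not tested beyond a fit with offsets for the trend. With these the medians of the low-oxygen response, NF-kB, cytokine and ribosome biogenesis lists were 0.34, -0.17, -0.32 and -0.23. That of calcium and NFAT genes was 0.09, with 3 genes at an unadjusted p under 0.05 in place of 7, that of proteasome genes -0.08, and that of ribosomal protein genes -0.08.

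**Figure D5:**
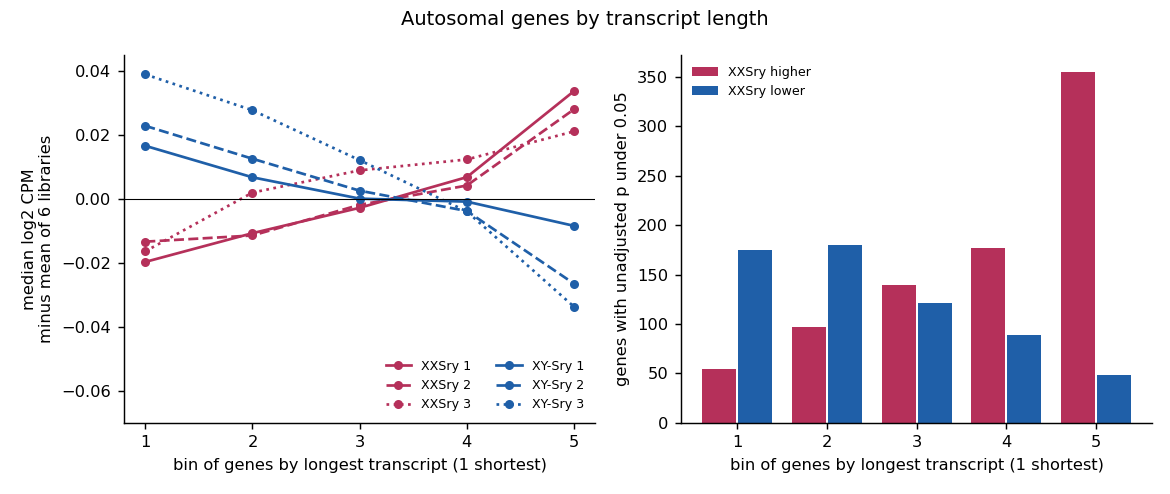
Autosomal genes in 5 equal bins by the length of their longest transcript (horizontal, 1 shortest). The left panel gives the median log2 CPM of each library relative to the mean of the 6 libraries, and the right panel the number of genes with an unadjusted p under 0.05, which reaches 355 on the higher side and 48 on the lower in the longest bin.

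Chromosomes differed little. The median log2 fold change per chromosome ran from -0.01 on chromosome 11 to 0.02 on chromosome 12, and the share of genes at an unadjusted p under 0.05 from 5.28% on chromosome 18 to 12.6% on chromosome 15.

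The same sex chromosome contrast in XX and XY- cells, which shares no library with XXSry and XY-Sry, gave 0 autosomal calls by edgeR and 1 by DESeq2 (Zfp771, named after its value was seen), with 848 genes at an unadjusted edgeR p under 0.05 (6.16%), 403 higher in XX (2.93%) and 445 lower (3.23%). Of the 822 genes on the higher side in XXSry cells at an unadjusted p under 0.05, 659 (80.2%) also had a positive fold change in XX against XY- cells, and of the 613 on the lower side 505 (82.4%) also had a negative one, while 8531 of all 13777 genes (61.9%) had the same sign. Their median in XX against XY- cells was 0.09 and -0.10, and 84 and 95 of them were at an unadjusted p under 0.05 there too. Across genes, which are not independent replicates, Pearson's r between the fold changes was 0.23 and Spearman's rho 0.31, and r was 0.52 over the 6278 genes with an average of at least 5 on the log2 CPM scale. Both contrasts trended in the same direction with transcript length and GC content, and the part of these trends was not tested. The test of the difference between the contrasts called 0 autosomal genes by edgeR and 0 by DESeq2, with 353 at an unadjusted edgeR p under 0.05 (2.56%).

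Gene lists differed in how their median compared between the gonad types. In XX against XY- cells the median was -0.20 for cytokines and chemokines, -0.14 for p53 targets, 0.11 for naive T cell genes, -0.09 for NF-kB genes and -0.08 for ribosomal proteins, each of the same sign as between XXSry and XY-Sry. It was 0.08 for the low-oxygen response, 0.02 for glycolysis, -0.06 for ribosome biogenesis and -0.005 for proteasome genes, where the values in Sry-carrying cells were 0.35, 0.13, -0.21 and -0.11. Some lists changed sign, among them cholesterol synthesis, at 0.03 in Sry-carrying cells and -0.09 in XX against XY- cells. In the same order the ATF4 list was at -0.07 and 0.03, heat shock genes at -0.13 and 0.008, and the unfolded protein response at -0.04 and 0.02. These differences between medians were not tested. Among the examples, Ndrg1 stood at 0.27 ± 0.24 and Slc16a3 at 0.06 ± 0.12 in XX against XY- cells, and Phlda3 at -0.59 ± 0.14 and Plxna1 at -0.40 ± 0.10.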

How the data were processed

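The 12 RNA-seq libraries formed 4 groups of 3. The authors deposited raw, whole-number read counts for each Ensembl gene and library, per the file headers. The submitters' processing notes name bcl2fastq 2.17 and the build mm10. The aligner, counter and strand setting are not given in the sources at hand, and overlapping genes on opposite strands could not be told apart. GENCODE M21 supplied symbols, positions and transcript lengths, and RefSeq (GRCm38.p6) the promoters.

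Tests on the counts used edgeR 4.0.16 (R 4.3.3): TMM scaling, low counts removed with filterByExpr (at least 10 by group and 15 in total), 1 coefficient for each group fitted to the 12 libraries together, the quasi-likelihood F-test for XXSry minus XY-Sry, and Benjamini-Hochberg adjustment over all 14585 genes tested, with a call at an adjusted p under 0.05. The standard error is the absolute log2 fold change divided by the square root of F, and CPM are scaled by TMM factors. Alternatives were DESeq2 1.42.0, limma 3.58.1 (voom), other scalings and filters, the 6 compared libraries alone, a block for the replicate number, leaving out each library, adjustment over autosomal genes alone and, added after the data were seen, offsets for the trend of each library with transcript length (lowess, span 0.5). The fit was tested on simulated counts with known changes. No 2 libraries of XXSry or of XY-Sry agreed within sampling noise, which was not checked for XX and XY-. Each library was counted once.

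The 40 gene lists and 7 marker lists were described by counts and medians, without a set test. The members and lists were chosen with earlier results of these data known. By a rule written down beforehand the text names genes called by edgeR or DESeq2, the 12 with the lowest p on each side and the 5 with the highest and lowest fold changes (without clone names, with groups that do not overlap, and at an average log2 CPM of 2 or more), up to 4 members of each list by lowest p, and Il2, Tnf and Ifng; members named only to mark where a list is alike or apart, and marker genes, are outside it. A few genes that this rule covers are not reported here.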

Additional observations from a re-analysis of the deposited data

Results flagged for a closer look

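Arl6, a small GTPase of ciliary trafficking on chromosome 16, went in opposite directions in the 2 gonad types. It was at 4.40, 4.10 and 4.21 CPM in XXSry against 5.93, 5.88 and 6.21 CPM in XY-Sry libraries, a log2 fold change of -0.50 ± 0.13, and at 5.79, 5.48 and 4.80 CPM in XX against 4.07, 4.46 and 4.30 CPM in XY- libraries, 0.33 ± 0.13. In both contrasts the groups did not overlap. Arl6 was flagged by this rule among the genes named in the text, so the pattern follows from how it was chosen. Between XXSry and XY-Sry, 10.3% of autosomal genes did not overlap on the higher side and 10.1% on the lower. The difference between the contrasts was -0.84 ± 0.18 on the log2 scale and did not pass the threshold (edgeR adjusted p = 0.9996).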

How the results depend on the processing

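Nrn1 remained the sole edgeR call with DESeq2 size factors, TMM factors from autosomal genes, a mean of at least 50 reads, limma voom, the 6 compared libraries alone, length offsets or a threshold of 0.10. Autosomal calls numbered 332 with no filter on low counts, 8 with DESeq2, 0 adjusted over autosomal genes alone, and 0 to 2 when 1 library was left out (0 without XXSry replicate 3, XXSry replicate 2 or 1 of the XY-Sry libraries, 2 without XX replicate 2, AF357399 and Nrn1). The cause of the 332 was not tested. With no filter the spread of fold changes was 0.957 and the interaction called 20 genes, and with a mean of at least 50 reads the spread was 0.153. The share at an unadjusted p under 0.05 ran from 4.20% to 15.2% without 1 library. The interaction could not be fitted on the 6 compared libraries. Deviations from the group mean correlated at -0.01, 0.02 and 0.14 between libraries of equal number, and from -0.13 to 0.12 between others. With 3 libraries per group these values cannot tell whether replicate numbers mark pairs. With a replicate block the count of calls was 1.

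Without 1 library, medians ranged as follows: cytokines -0.49 to -0.20, p53 targets -0.26 to -0.15, homing receptors 0.064 to 0.25, regulatory T cell 0.13 to 0.18, Th1 -0.038 to 0.10, Th17 -0.29 to -0.013, costimulatory -0.094 to 0.0082, IL-2 receptor and JAK-STAT -0.013 to 0.060, mRNA decay -0.0047 to 0.054, cholesterol 0.0024 to 0.056, unfolded protein response -0.057 to -0.0061, BCL2 family -0.076 to 0.018, translation initiation -0.17 to -0.032, plexins -0.090 to 0.017, DNA replication -0.021 to -0.0031, gamma delta and NKT markers 0.13 to 0.61, and myeloid markers -0.11 to 0.11. With length offsets the median was -0.0090 for mRNA decay, 0.13 for regulatory T cell, -0.040 for respiratory chain, 0.0071 for cholesterol, -0.016 for DNA replication and -0.084 for plexin genes. DNA replication lay at -0.0145 with TMM factors from autosomal genes, -0.0097 with a mean of at least 50 reads, -0.015 with no filter and -0.016 with the 6 compared libraries alone. Myeloid markers lay at -0.44 with a mean of at least 50 reads, and gamma delta and NKT markers at 0.65 with the 6 libraries alone. The other list medians moved by less than the spread between replicates, though many of them by over 1.5 times without 1 library. Among these, type I interferon ran from -0.019 to 0.30, NF-kB from -0.23 to -0.08 and ribosome biogenesis from -0.32 to -0.11. ATF4 ran from -0.11 to -0.023, MAP kinase feedback from -0.10 to -0.029, and steroid receptors from 0.066 to 0.17. The low-oxygen response ran from 0.22 to 0.40, glycolysis from 0.07 to 0.17 and naive T cell genes from 0.11 to 0.29. Proteasome genes ran from -0.15 to -0.07 and heat shock genes from -0.18 to -0.06. With 3 libraries per group, what can be called is limited.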
